A study of Mus musculus with 15 samples.

Results

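Hepcidin is the liver hormone that sets how much iron enters the blood, and the genes described here encode it and the proteins that sense iron and set its level. The family held 10 genes: Hamp, Hamp2, Bmp6, Id1, Smad7, Tfr2, Tfrc, Hfe, Tmprss6 and Slc40a1. They were measured by 15 of the 45281 probes on the array and are 10 of the 19057 genes with a probe. The genes were chosen by their symbols with the levels of these same arrays already known, so their levels and differences are given as a description and without p-values.

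Total RNA of 15 samples, 5 in each of 3 groups, was hybridised to Illumina BeadChip arrays of mouse probes. All mice were male B6/129 mice, a stable isogenic cross of the strains 129S1/SvImJ and C57Bl/6J, which began their diet as young adults and were killed after 52 weeks. CD NW liver came from 5 mice fed chow with normal water, named 1L, 1R, 2L, 2N and 3N. WD SW liver came from 5 mice fed a high-fat Western diet with a drink of fructose and glucose, named 4N, 4R, 5N, 5R and 6L, and WD SW tumor from the same 5 mice. The WD SW livers also bore tumors, so the diet and the presence of a tumor cannot be told apart in them. Levels are log2 signals after background correction and quantile normalization, and levels of different probes are not comparable with each other. In these bulk samples, fewer cells of a type and less RNA per cell cannot be told apart.

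Hepcidin is made by hepatocytes, and it closes ferroportin, the exporter through which gut cells, macrophages and hepatocytes release iron into plasma. Hepatocytes raise hepcidin when endothelial cells of the liver release bone morphogenetic proteins (BMPs), which act through SMAD transcription factors, and when inflammatory cytokines act through STAT3. They also read the iron load of plasma through a pair of transferrin receptors, with HFE passing between them. Mice carry a second hepcidin gene, Hamp2, beside Hamp, while humans have a single one.

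The promoters of Hamp and Hamp2 are shown because these neighbours had the largest differences in the family and followed different patterns over the groups. Each window runs 5′ to 3′ from 250 bases before to 50 after the RefSeq start on build GRCm38.p6, on the minus strand of chromosome 7. Hamp lies at chr7:30943980-30944279 and Hamp2 at chr7:30924132-30924431, with 19848 bases between their starts. Capitals mark GGCGCC, the core of a BMP-responsive element, or the bases aligned with it, and TTCNNNGAA, a form of STAT site. Both were searched on both strands, and they share no bases here.
Hamp: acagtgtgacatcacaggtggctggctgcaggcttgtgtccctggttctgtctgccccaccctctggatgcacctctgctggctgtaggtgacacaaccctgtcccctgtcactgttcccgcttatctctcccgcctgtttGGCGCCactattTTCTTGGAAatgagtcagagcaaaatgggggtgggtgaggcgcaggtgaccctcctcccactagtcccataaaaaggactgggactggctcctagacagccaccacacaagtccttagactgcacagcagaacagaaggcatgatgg
Hamp2: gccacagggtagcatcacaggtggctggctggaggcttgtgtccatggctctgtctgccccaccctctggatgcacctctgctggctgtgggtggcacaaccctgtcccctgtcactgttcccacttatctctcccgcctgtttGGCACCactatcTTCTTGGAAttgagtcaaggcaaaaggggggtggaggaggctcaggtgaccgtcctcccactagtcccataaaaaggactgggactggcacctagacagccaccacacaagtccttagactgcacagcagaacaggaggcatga
Aligned with gaps, 276 of 297 bases were identical (92.9%). Hamp held GGCGCC with its first base 109 bases before the start. The aligned bases of Hamp2, 106 bases before its start, read GGCACC, a substitution written G4A when counted from 1 at the 5′ end of the site in Hamp. TTCTTGGAA stood 97 bases before the start in Hamp and 94 in Hamp2. Of 32851 promoter windows of this length, 11.9% held GGCGCC and 8.3% held TTCNNNGAA, so a match of letters is common and is only a description. Windows of 6 genes of the family were used. Tfrc held 1 GGCGCC in 1 of its windows, and the windows of Bmp6, Tfr2 and Hfe held neither motif. The windows of Id1, Smad7, Tmprss6 and Slc40a1 were not used here.

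Between 12293 and 15829 probes an array were above background, judged against 1526 stand-in negative controls, the probes for receptors of smell, pheromones and trace amines. All 10 hepatocyte markers, Alb, Apoa1 and Ttr among them, were above background on all 10 liver arrays and 9 of them on all 5 tumor arrays. The summed log2 level of these markers was 17.2 to 17.4 in CD NW liver, 17.1 to 17.3 in WD SW liver and 17.0 to 17.2 in tumor, a sum carried by bright probes such as Trf, Apoa1 and Ttr. Xist was at background on all 15 arrays and the Y-linked Eif2s3y above it on all 15. The mean log2 level of Eif2s3y was 10.06 ± 0.38 (SD, n = 5) in CD NW liver and 10.09 ± 0.14 (SD, n = 5) in WD SW liver. In tumor it was lower and more uneven, at 8.43 ± 1.25 (SD, n = 5), and the cause was not tested. The WD SW liver of mouse 5R was as close to tumors as to livers: its correlation over genes was 0.965 with its own tumor and 0.947 on average with the other WD SW livers. A difference that involves WD SW liver is therefore also given without mouse 5R for Hamp, Hamp2, Slc40a1 and Tmprss6. The other livers were not compared with tumors in this way, so mouse 5R need not be the only such case. The WD SW liver of mouse 6L correlated less with its own group, at 0.943 on average.

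Hamp, the gene of hepcidin, was high in every liver and lower in every tumor. Its log2 level in CD NW liver was 14.36 in mouse 1L, 14.23 in 1R, 14.19 in 2L, 14.28 in 2N and 14.53 in 3N. In WD SW liver it was 14.19 in mouse 4N, 13.91 in 4R, 13.75 in 5N, 14.01 in 5R and 14.40 in 6L. In tumor it was 11.42 in mouse 4N, 12.56 in 4R, 12.11 in 5N, 10.27 in 5R and 11.95 in 6L. The livers of the 2 diets overlapped, and no tumor reached any liver. Group means were 14.32 ± 0.13 (SD, n = 5), 14.05 ± 0.25 (SD, n = 5) and 11.66 ± 0.88 (SD, n = 5), so tumors varied most. Tumors were below WD SW liver by a log2 difference of -2.39 (standard error 0.35), which is 5.25-fold. Against CD NW liver the difference was -2.66 (standard error 0.33), or 6.30-fold. The deposited signal before normalization was 13020 to 24040 in the livers and 1107 to 6143 in the tumors. WD SW liver differed from CD NW liver by -0.26 (standard error 0.13), or 1.20-fold. Without both arrays of mouse 5R, the difference between tumor and WD SW liver was -2.05. The liver of mouse 5R, which correlated best with its own tumor over all genes, had a Hamp level within the range of the other WD SW livers. Of the hepatocyte markers, 3 of 10 tested were called lower in tumor than in CD NW liver and none higher. Of all tested genes, 12.8% were called lower and 12.3% higher. The median log2 difference over the 10 markers was -0.35. Cps1, a urea cycle enzyme, was at 13.30 ± 0.47 (SD, n = 5) in CD NW liver, 13.00 ± 0.62 (SD, n = 5) in WD SW liver and 10.23 ± 2.22 (SD, n = 5) in tumor. Cps1 was 1 of these 10 markers. Their median log2 difference between tumor and WD SW liver was -0.03, and none of them was called higher or lower there. The part of these markers in the Hamp result was not tested.

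**Figure D1:**
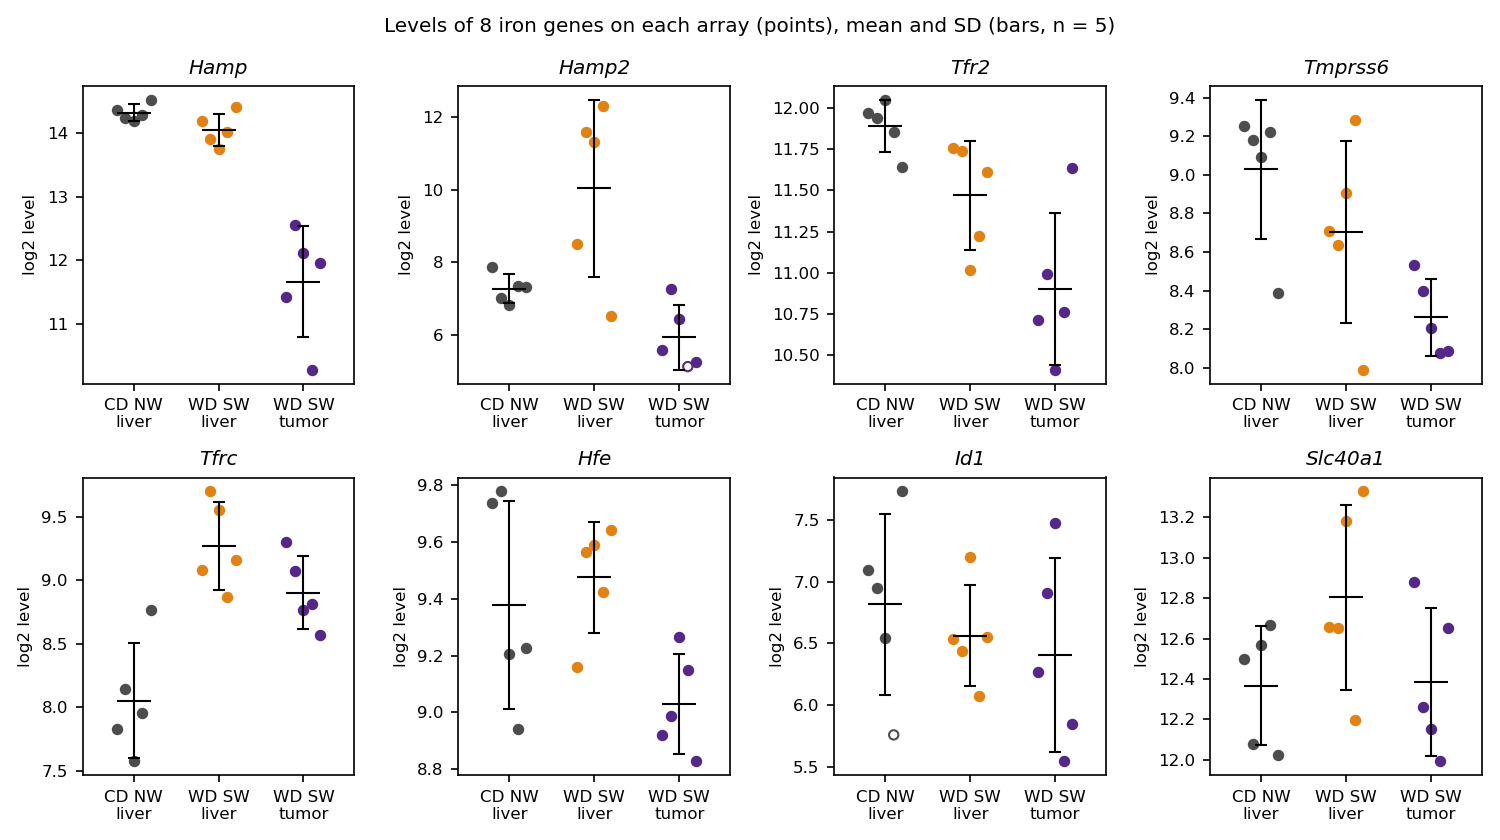
Log2 level (y axis, log2 scale that differs between panels) of 8 genes on each array, by group; points are arrays, open points are not above background, and bars are the mean and SD of 5 arrays. Hamp in tumors lies between 10.27 and 12.56, below the lowest liver at 13.75, while Hamp2 in WD SW liver spreads from 6.52 to 12.30.

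Within each mouse the tumor was below its own liver for Hamp in 5 of 5 mice. The difference was -2.77 in mouse 4N, -1.35 in 4R, -1.64 in 5N, -3.74 in 5R and -2.45 in 6L, a mean of -2.39 ± 0.95 (SD, n = 5). The smallest drop, in mouse 4R, was still larger than the whole range of Hamp over the 10 livers.

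Hamp2, the second hepcidin gene, behaved differently from Hamp, since its level was uneven among the WD SW livers. Its log2 level in CD NW liver was 7.87 in mouse 1L, 7.01 in 1R, 6.82 in 2L, 7.33 in 2N and 7.32 in 3N. The WD SW livers stood at 8.49 in mouse 4N, 11.59 in 4R, 11.33 in 5N, 12.30 in 5R and 6.52 in 6L. Thus 4 of 5 WD SW livers were above every CD NW liver, and mouse 6L was below them all. The tumors stood at 5.57 in mouse 4N, 7.26 in 4R, 6.43 in 5N, 5.11 in 5R and 5.25 in 6L, and the probe was not above background in the tumor of mouse 5R. Tumors overlapped both kinds of liver. Group means were 7.27 ± 0.40 (SD, n = 5) in CD NW liver, 10.05 ± 2.45 (SD, n = 5) in WD SW liver and 5.92 ± 0.90 (SD, n = 5) in tumor.

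For Hamp2, WD SW liver was above CD NW liver by a log2 difference of 2.78 (standard error 0.93), which ranged from 2.21 without the liver of mouse 5R to 3.66 without that of mouse 6L. Tumor was below WD SW liver by a log2 difference of -4.12 (standard error 0.97), or 17.4-fold, and below CD NW liver by -1.35 (standard error 0.38). The difference from WD SW liver was -3.36 without both arrays of mouse 5R, where its call was lost, and -5.004 without the liver of mouse 6L. Without background correction the differences were -3.13 and -0.70. Within mice, the tumor was lower in 5 of 5, by -2.92 in 4N, -4.33 in 4R, -4.90 in 5N, -7.19 in 5R and -1.27 in 6L. The largest within-mouse difference was in mouse 5R, whose liver had the highest and whose tumor had the lowest level of Hamp2. Hamp and Hamp2 share 92.9% of their promoter bases, but the files do not state how far a probe for either gene also detects the other.

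**Figure D2:**
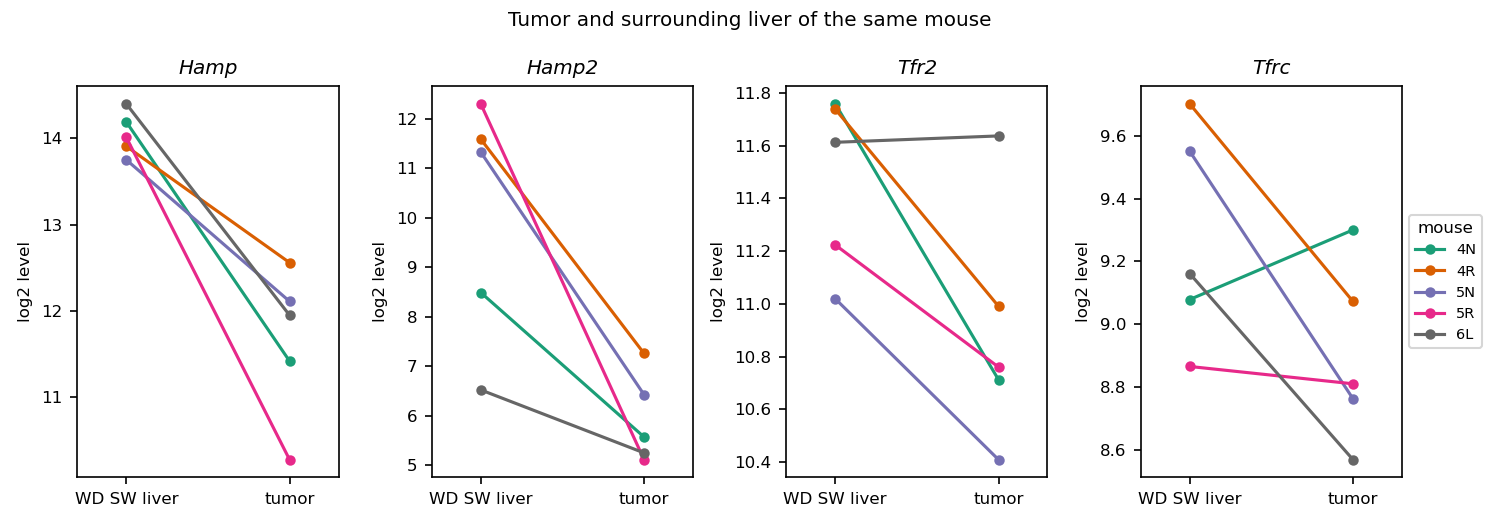
Log2 level (y axis, log2 scale that differs between panels) of Hamp, Hamp2, Tfr2 and Tfrc in the WD SW liver and the tumor of the same mouse, joined by a line for each of 5 mice. The tumor is the lower end of all 5 lines for Hamp and Hamp2, and of 4 of 5 lines for Tfr2 and Tfrc.

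Slc40a1 encodes ferroportin, the iron exporter that hepcidin closes, and its log2 level ran from 11.99 to 13.33 over the 15 arrays. In CD NW liver the log2 level was 12.50 in mouse 1L, 12.08 in 1R, 12.57 in 2L, 12.67 in 2N and 12.02 in 3N. Among WD SW livers it was 12.66 in 4N, 12.65 in 4R, 13.18 in 5N, 12.20 in 5R and 13.33 in 6L. Among tumors it was 12.88 in 4N, 12.26 in 4R, 12.15 in 5N, 11.99 in 5R and 12.65 in 6L. All 3 groups overlapped, with WD SW liver highest on average. The log2 difference was 0.44 (standard error 0.22) between WD SW and CD NW liver, -0.42 (standard error 0.24) between tumor and WD SW liver, and 0.02 (standard error 0.19) between tumor and CD NW liver. The sign of that last difference turned in 5 of the 19 alternatives tried, each with another way of processing or 1 array left out. Without the liver of mouse 5R, the difference between the livers was 0.59. A second probe of Slc40a1 was at background on all 15 arrays and measured nothing.

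Tfrc encodes transferrin receptor 1, which brings transferrin-bound iron into cells, and it was higher in WD SW livers and tumors than in CD NW livers. Its log2 level in CD NW liver was 7.83 in mouse 1L, 8.14 in 1R, 7.57 in 2L, 7.96 in 2N and 8.77 in 3N. In WD SW liver it was 9.08 in mouse 4N, 9.70 in 4R, 9.55 in 5N, 8.87 in 5R and 9.16 in 6L. In tumor it was 9.30 in mouse 4N, 9.07 in 4R, 8.76 in 5N, 8.81 in 5R and 8.57 in 6L. Every WD SW liver was above every CD NW liver, while mouse 3N of the CD NW group lay within the range of the tumors. The log2 difference between WD SW and CD NW liver was 1.22 (standard error 0.23), which is 2.33-fold. Between tumor and CD NW liver it was 0.85 (standard error 0.22), or 1.80-fold. Between tumor and WD SW liver it was -0.37 (standard error 0.20), with the tumor lower in 4 of 5 mice and higher in mouse 4N. A second probe of Tfrc gave log2 differences of 1.22, 0.92 and -0.30 for these comparisons, in the same order.

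Tfrc is also abundant in dividing cells, red cell precursors and macrophages, so the markers of these cells are given beside it. Of the 13 macrophage and Kupffer cell markers with a probe, 11 were tested between WD SW and CD NW liver. Of these, 9 were called higher and 1 lower, where 6.07% and 3.7% of all tested genes were. The summed log2 level of the 13 markers was 10.4 to 11.3 in CD NW liver, 12.2 to 14.6 in WD SW liver and 11.0 to 12.7 in tumor. Clec4f, Adgre1, Csf1r and C1qa were above background on every liver array, whereas Cd5l was not on any. The summed level of the erythroid markers was 13.8 to 14.8, 13.9 to 15.1 and 13.6 to 15.9 in the same groups, and Epb42 was at background throughout. The summed level of the proliferation markers was 7.73 to 8.19, 8.44 to 9.06 and 8.35 to 9.42. It was thus higher in every WD SW liver and tumor than in any CD NW liver. For the macrophage sum and for Tfrc, tumors overlapped CD NW livers. None of the 8 with a probe was above background on all CD NW arrays. The part of these cells in the Tfrc result was not tested.

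Tfr2 encodes transferrin receptor 2, the hepatocyte sensor of transferrin saturation, and its mean level was highest in CD NW liver, next in WD SW liver and lowest in tumor. The log2 level in CD NW liver was 11.97 in mouse 1L, 11.94 in 1R, 12.05 in 2L, 11.86 in 2N and 11.64 in 3N. The WD SW livers stood at 11.76 in 4N, 11.74 in 4R, 11.02 in 5N, 11.22 in 5R and 11.61 in 6L. The tumors stood at 10.71 in 4N, 10.99 in 4R, 10.41 in 5N, 10.76 in 5R and 11.64 in 6L. The tumor of mouse 6L nearly reached the lowest CD NW liver, with 11.637 against 11.643, and the other 4 tumors were below every liver. The log2 difference was -0.42 (standard error 0.16) between WD SW and CD NW liver and -0.57 (standard error 0.23) between tumor and WD SW liver. Between tumor and CD NW liver it was -0.99 (standard error 0.20), or 1.99-fold. A second probe gave -0.48, -0.49 and -0.97. Within mice, the tumor was lower in 4 of 5, and mouse 6L differed by 0.02.

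Hfe encodes the protein mutated in hereditary hemochromatosis, which binds both transferrin receptors. The log2 level in CD NW liver was 9.74 in mouse 1L, 9.78 in 1R, 9.21 in 2L, 8.94 in 2N and 9.23 in 3N. Among WD SW livers it was 9.16 in 4N, 9.56 in 4R, 9.59 in 5N, 9.42 in 5R and 9.64 in 6L. Among tumors it was 8.92 in 4N, 8.99 in 4R, 9.27 in 5N, 9.15 in 5R and 8.83 in 6L. Tumors were at the low end of both liver groups and overlapped each. The log2 difference between tumor and WD SW liver was -0.45 (standard error 0.14), with the tumor lower in 5 of 5 mice. Against CD NW liver it was -0.35 (standard error 0.18), and between the livers 0.10 (standard error 0.17), a sign that turned when mouse 2N was left out (-0.012). The second, dimmer probe of Hfe gave smaller log2 differences for tumor, -0.26 against WD SW liver and -0.05 against CD NW liver.

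Tmprss6 encodes matriptase-2, a hepatocyte protease that holds hepcidin down by cutting the BMP co-receptor hemojuvelin. In CD NW liver its log2 level was 9.25 in mouse 1L, 9.18 in 1R, 9.09 in 2L, 9.22 in 2N and 8.39 in 3N, so mouse 3N stood apart. In WD SW liver it was 8.71 in 4N, 8.63 in 4R, 8.91 in 5N, 9.28 in 5R and 7.99 in 6L. In tumor it was 8.53 in 4N, 8.40 in 4R, 8.21 in 5N, 8.08 in 5R and 8.09 in 6L. Tumors were below 4 of 5 CD NW livers and overlapped both groups. Tumor differed from CD NW liver by -0.77 (standard error 0.18) on the log2 scale, or 1.70-fold, and by -0.93 without mouse 3N. It differed from WD SW liver by -0.44 (standard error 0.22), with the tumor lower in 4 of 5 mice. Without both arrays of mouse 5R, that difference was -0.25. The log2 difference between the livers was -0.32 (standard error 0.24). A second probe gave -0.66, -0.45 and -0.21 for these comparisons.

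The BMP branch of the family was largely out of reach. Bmp6, the BMP with which sinusoidal endothelial cells signal iron load to hepatocytes, and Smad7, an inhibitor that BMP signalling induces against itself, were not above background on any of the 15 arrays. The log2 values of their probes spanned 4.27 to 4.91 and 4.18 to 4.85. These genes were not tested, and no change in either can be read from these arrays. Without a filter on dim probes Bmp6 was called in tumor against CD NW liver, from values at background. Of the 12 endothelial markers, 8 were above background on all 5 arrays of CD NW liver, 7 on all 5 of WD SW liver and 6 on all 5 of tumor. Their summed log2 level was 11.6 to 12.6 in CD NW liver, 10.3 to 12.6 in WD SW liver and 9.64 to 11.5 in tumor. The part of these cells in the Bmp6 and Id1 values was not tested.

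Id1, a target gene of BMP and SMAD signalling that is often read as its activity, was dim but measured. In CD NW liver its log2 level was 7.10 in mouse 1L, 6.95 in 1R, 6.54 in 2L, 5.76 in 2N and 7.74 in 3N, and the probe was not above background in mouse 2N. The WD SW livers stood at 6.54 in 4N, 6.44 in 4R, 7.21 in 5N, 6.07 in 5R and 6.56 in 6L. The tumors stood at 6.27 in 4N, 6.91 in 4R, 7.48 in 5N, 5.54 in 5R and 5.85 in 6L. The groups overlapped almost wholly. The log2 difference was -0.25 (standard error 0.33) between the livers, -0.15 (standard error 0.35) between tumor and WD SW liver and -0.41 (standard error 0.41) between tumor and CD NW liver. Each of these is about the size of its standard error or less. The sign of the difference between tumor and WD SW liver turned without the tumor of mouse 5R (0.06), without the liver of mouse 5N (0.01) and with array weights (0.09).

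**Figure D3:**
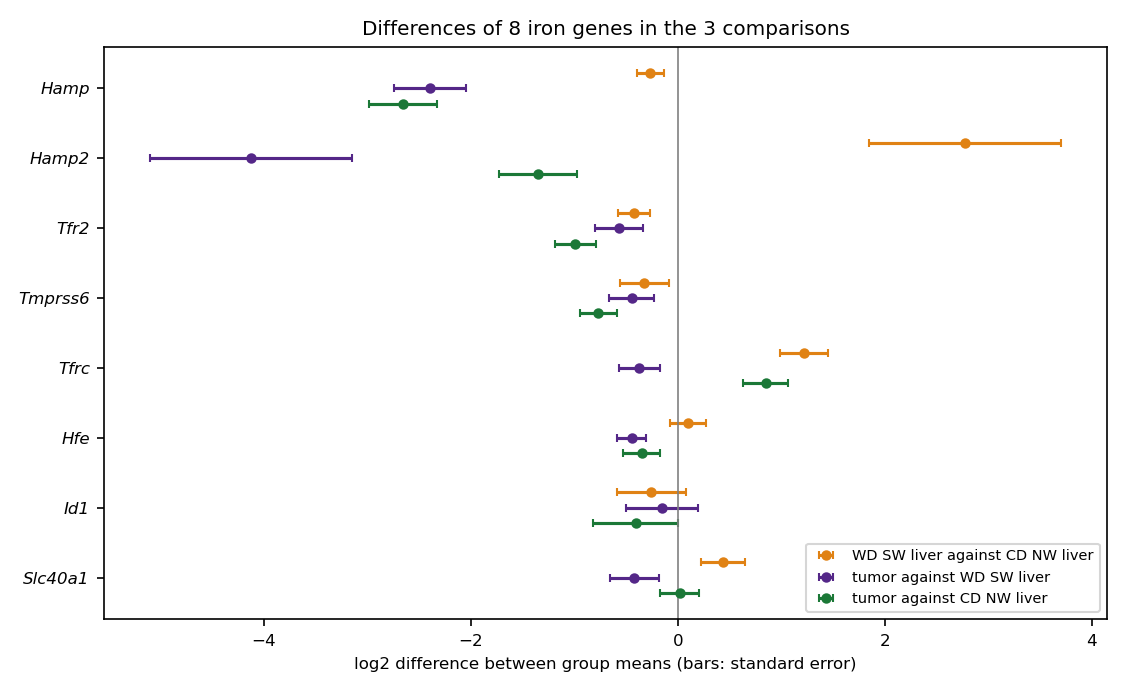
Log2 difference between group means (x axis) for 8 genes (y axis) in the 3 comparisons, with bars for the standard error; n = 5 arrays a group, and the comparisons share groups. Hamp lies at -2.39 and -2.66 in the tumor comparisons but at -0.26 between the livers, and Hamp2 lies on opposite sides of 0 in WD SW liver against CD NW liver (2.78) and tumor against WD SW liver (-4.12).

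Counts over the family are read beside the share of all tested genes, and since these contrasts helped choose the genes, nothing follows from them. Of the 10 genes, 8 passed the filter on low signal in each comparison. A gene was called at an adjusted p under 0.05 in a limma fit of all tested genes. The mouse was not a term in that fit. Standard errors and calls between tumor and WD SW liver are therefore unpaired, except where the mouse is named as a replicate block. Between WD SW and CD NW liver, 1 of 8 genes was called higher (Tfrc) and none lower, where 6.07% and 3.7% of all 8429 tested genes were. Groups did not overlap, with WD SW liver higher, for 1 gene (Tfrc), against 5.88% of all genes. Of all genes, 512 were called higher and 312 lower. Median scaling of the arrays in place of quantile normalization called 81.4% of the changed genes higher in place of 62.1%.

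Between tumor and WD SW liver, 2 of 8 genes were called lower (Hamp and Hamp2) and none higher, where 2.05% and 1.96% of all 8674 tested genes were. Only Hamp had groups that did not overlap, tumor lower, as had 2.92% of all genes. The call of Hamp held in all 21 alternatives and that of Hamp2 in 9. Hamp2 lost its call without the tumor of mouse 4N (log2 difference -4.03), 5N (-4.25), 5R (-3.92) or 6L (-3.95), and without the WD SW liver of 4R (-3.74), 5N (-3.80) or 5R (-3.56). With the mouse as a replicate block, 907 genes in place of 348 were called, and of the family again Hamp and Hamp2.

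Between tumor and CD NW liver, 4 of 8 genes were called lower (Hamp, Hamp2, Tfr2 and Tmprss6) and 1 higher (Tfrc), where 12.8% and 12.3% of all 8352 tested genes were. Hamp and, by a hair, Tfr2 did not overlap, tumor lower, as did 8.66% of all genes. Hamp, Tfr2 and Tfrc were called in all 19 alternatives, Tmprss6 in 18 and Hamp2 in 15. Leaving out mouse 1L ended the call of Hamp2 (-1.20), as did median scaling, a filter on all 10 arrays and 1 fit of 15 arrays. The median log2 difference of the family was -0.08, -0.44 and -0.59 in the 3 comparisons, beside -0.05, 0.00 and -0.04 over all tested genes. With median scaling 71.2% of the changed genes were higher in tumor than in CD NW liver, in place of 49.1%, and the median of all genes moved to 0.15 from -0.04. No called direction in the family turned with that scaling.

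Other genes of iron handling were read from 7 lists of 74 genes in all, of which 71 had a probe. All differences of these genes are on the log2 scale. Between WD SW and CD NW liver, 4 of 56 tested rose and 3 fell, at adjusted p-values from limma over all genes, where 6.07% of all tested genes rose and 3.7% fell. The counts are near those shares, so nothing is said of the lists as a whole. The median log2 difference of the tested iron genes was 0.13, beside -0.05 over all tested genes. The rise was clearest for Hmox1, heme oxygenase 1, which frees iron from heme, at a log2 difference of 2.13 (standard error 0.30, adjusted p = 0.00251), with groups that did not overlap. It was above background on 3 of 5 CD NW arrays, and its difference was 1.11 without background correction. Il1b, the interleukin-1 beta gene, rose by 1.81 (standard error 0.42, adjusted p = 0.0211), a call lost when mouse 2L (adjusted p = 0.0557) or 2N (0.0503) was left out. Lcn2, lipocalin-2, which binds bacterial iron carriers, rose by 2.88 (standard error 0.77, adjusted p = 0.0366) and Twsg1, a BMP-binding protein, by 0.40 (standard error 0.11, adjusted p = 0.0469). These calls were lost in 8 and 14 of 19 alternatives, with adjusted p up to 0.0846 and 0.166.

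The 3 that fell between the livers were Bmp4, Cd163 and Slc46a1. Bmp4, a BMP ligand, went from 6.74 ± 0.19 (SD, n = 5) to 5.69 ± 0.25 (SD, n = 5), a log2 difference of -1.05 (adjusted p = 0.00336 from limma). Cd163, the macrophage receptor for hemoglobin bound to haptoglobin, had a difference of -1.87 (adjusted p = 0.0127), and it was above background in 5 CD NW and 1 of 5 WD SW livers. The CD NW livers alone were enough for Cd163 to pass the filter on low signal, so its call is only a description. Slc46a1, a heme and folate carrier, had a difference of -0.54 (adjusted p = 0.0328), which failed in 7 of 19 alternatives (adjusted p up to 0.106). Without background correction the differences of Il1b, Bmp4 and Cd163 were 0.96, -0.51 and -0.81. Cd163 fell while 9 of the other macrophage markers rose.

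Between tumor and WD SW liver, 2 of 55 tested iron genes rose and 2 fell, where 1.96% and 2.05% of all tested genes did, with a median log2 difference of -0.06 beside 0.00 over all tested genes. Bmp7, another BMP ligand, rose by 2.20 (standard error 0.36, adjusted p = 0.00802 from limma), from above background in 1 of 5 WD SW livers to all 5 tumors. The tumors alone were enough for Bmp7 to pass the filter on low signal, so its call is only a description. Blvrb, biliverdin reductase B, rose by 1.19 (standard error 0.26, adjusted p = 0.0263), but not when the liver of mouse 4N or 4R or the tumor of 4R, 5N or 5R was left out (adjusted p = 0.0527 to 0.0713). Egfr, the receptor of epidermal growth factor, fell by 1.81 (standard error 0.36, adjusted p = 0.0177), and leaving out the liver of mouse 4R ended this call (adjusted p = 0.0558). Steap2, a metalloreductase that reduces iron, fell by 1.71 (standard error 0.32, adjusted p = 0.0157), but it was above background on 2 of 5 tumor arrays. Without background correction the differences of Bmp7 and Steap2 were 1.04 and -0.74. With the mouse as a replicate block, Slc11a2 (1.19, adjusted p = 0.00325) and Id2 (-0.93, adjusted p = 0.0169) were called as well.

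Between tumor and CD NW liver, 10 of 56 tested iron genes rose and 11 fell, where 12.3% and 12.8% of all tested genes did, with a median log2 difference of 0.04 beside -0.04 over all tested genes. Of the BMP and SMAD list, 3 rose and 3 fell. Bmp7 was at background on all 5 CD NW arrays and at least 3.12-fold higher in tumor, where the bound sets the tumor mean against the dimmest probes above background. It passed the filter on low signal through the tumors alone, so its call is only a description. Fkbp1a, which holds BMP receptors inactive, rose by 1.02 (adjusted p = 6.84e-04 from limma) and Smad5, a signal carrier of BMP receptors, by 0.73 (adjusted p = 0.0112). Bmp4 fell by 1.54 (adjusted p = 0.00124), but it was above background on 2 of 5 tumor arrays and its difference was -0.67 without background correction. The BMP target genes Id3 and Id2, named after their values were seen, fell by 1.20 (adjusted p = 0.0177) and fell by 1.94 (adjusted p = 0.0275). Id3 lost its call with median scaling (adjusted p = 0.0969) and Id2 in 6 of 19 alternatives (adjusted p up to 0.0707), with a difference of -1.21 when its probes were averaged.

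Of the cytokine list, Jak2, a kinase of the STAT3 pathway, rose by 0.72 (adjusted p = 0.00548 from limma). Stat3 and Il6st, the signal-carrying receptor chain for interleukin-6, fell by 0.64 (adjusted p = 0.0496) and 0.56 (adjusted p = 0.0394), calls lost in 11 and 9 of 19 alternatives (adjusted p up to 0.122 and 0.41). Of the growth factor list, Egfr fell by 2.04 (adjusted p = 0.00121) and Pdgfra, a platelet-derived growth factor receptor, by 1.29 (adjusted p = 0.00238). Pdgfra was above background on 1 of 5 tumor arrays, so the size of its difference is uncertain (-0.49 without background correction). Furin and Spint2, the tested genes of the list on control of matriptase-2, differed from CD NW liver by -0.14 (adjusted p = 0.462) and 0.52 (adjusted p = 0.0572) in tumor and by -0.24 (adjusted p = 0.205) and 0.01 (adjusted p = 0.985) in WD SW liver, and did not pass.

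Of the list on iron and heme uptake and transport, 2 of 17 tested genes rose in tumor against CD NW liver, 4 fell and 11 did not pass. Of all tested genes in this comparison, 12.3% rose and 12.8% fell. The lists are short, so nothing is said of them as a whole. Of the list on iron storage and chaperones, 2 of 6 rose and 4 did not pass. Slc11a2, the divalent metal transporter DMT1, rose by 1.37 against CD NW liver (adjusted p = 0.0161 from limma). Steap2 fell by 1.77 (adjusted p = 6.63e-04, and -0.76 without background correction) and Slc46a1 by 0.73 (adjusted p = 0.00360, and 0.0870 with median scaling). Cd163, at background on all 5 tumor arrays, was at least 2.64-fold lower. It passed the filter on low signal through the CD NW livers alone, so its call is only a description. Lrp1, a receptor for heme bound to hemopexin, and Flvcr1, a heme exporter, were named after their values were seen, with differences of -0.50 and 0.43 (adjusted p = 0.0475 and 0.0461), calls lost in 12 and 11 of 19 alternatives (adjusted p up to 0.442 and 0.101). Fth1, the ferritin heavy chain that stores iron, rose by 0.52 (adjusted p = 0.00209; 0.0682 with median scaling), and Pcbp2, which carries iron to ferritin, by 0.54 (adjusted p = 0.00443). Blvrb rose by 1.59 (adjusted p = 5.23e-06) and Hmox1 by 2.07 (adjusted p = 0.00465), the 2 that rose of 6 tested genes of iron regulatory proteins and heme breakdown, and the other 4 did not pass. Hmox1 went to 1.11 without background correction. Against WD SW liver Hmox1 differed by -0.06 (adjusted p = 0.968).

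**Figure D4:**
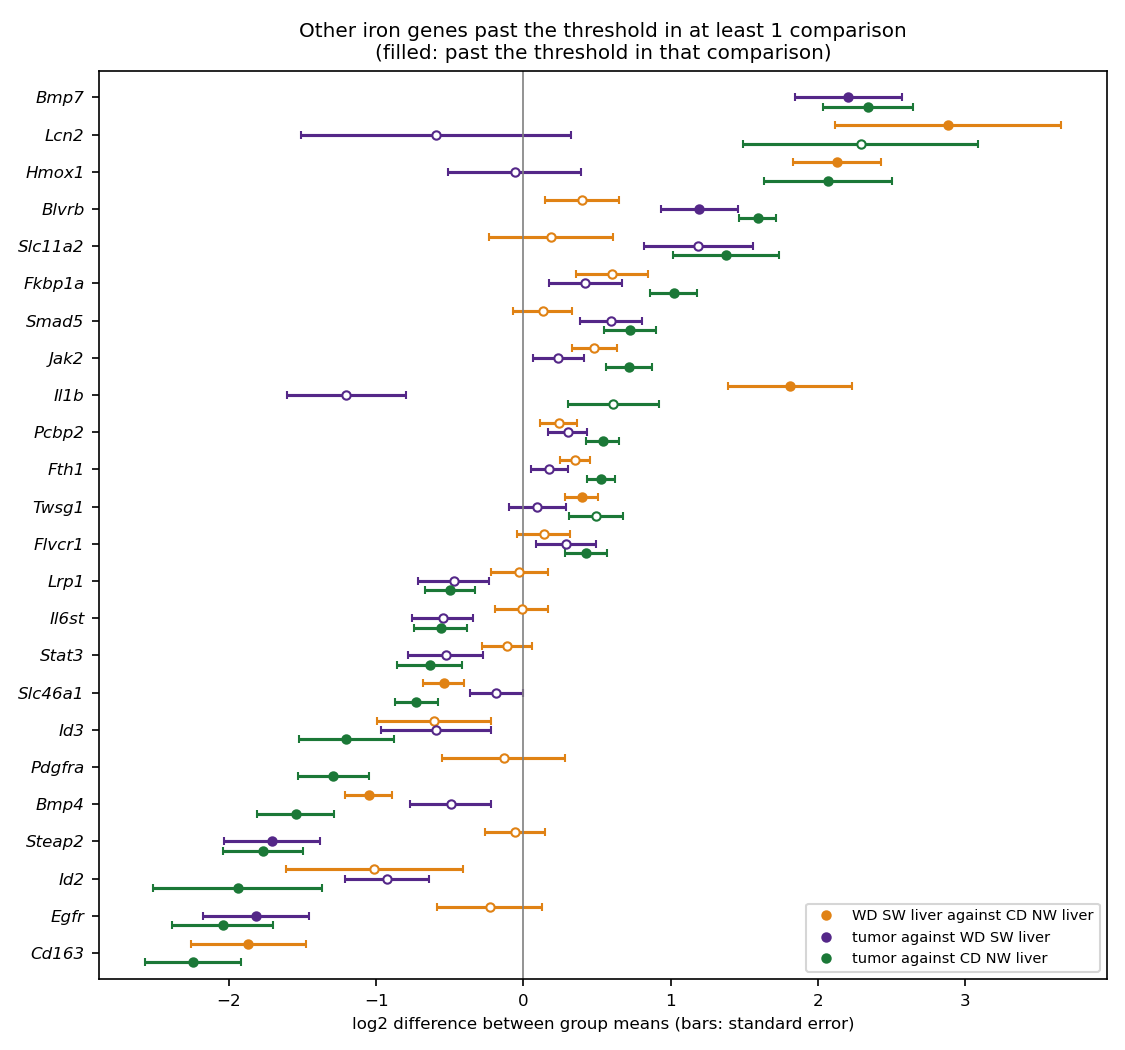
Log2 difference between group means (x axis) for the 24 other iron genes (y axis) called in at least 1 comparison, with bars for the standard error and filled points where the gene was called; n = 5 arrays a group. Hmox1 lies near 2.1 in both comparisons with CD NW liver. Bmp7 and Cd163 in tumor against CD NW liver had 1 group at background on all 5 arrays, so their points there are fitted values of which only a bound was measured.

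The genes whose pattern over the 15 arrays was most like that of Hamp were picked among 8981 measured genes by the root mean square difference of log2 levels, each gene centred on its own mean. They were Efna5 (0.47), Cadps2 (0.48), Gypc (0.50), Rtl8a (0.52) and Uroc1 (0.56), beside an SD of Hamp itself of 1.33. Uroc1, the urocanase of histidine breakdown, had mean log2 levels of 13.16 in CD NW liver, 12.80 in WD SW liver and 10.44 in tumor. Gypc, glycophorin C of the red cell membrane, was at background on all 5 tumor arrays. Those most like Tfrc were Gab3 (0.28), Slc2a3 (0.30), Rassf2 (0.31), Sh3kbp1 (0.34) and Tbc1d1 (0.34), beside an SD of Tfrc of 0.63. All 5 were dim, with CD NW means between 4.62 and 5.19, and none was above background on more than 1 of 5 CD NW arrays: Slc2a3, Rassf2 and Tbc1d1 on 0, Gab3 and Sh3kbp1 on 1.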

How the data were processed

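Total RNA of 15 samples was hybridised to Illumina mouse BeadChips. The authors deposited probe intensities on a linear scale without normalization, and a second table of processed intensities, with a method that no source used here states. The unnormalized intensities were used. With limma 3.58.1 in R 4.3.3, background was corrected by neqc (offset 16) on 1526 stand-in control probes, and arrays were quantile normalized and put on the log2 scale. Detection p was the share of stand-ins at or above a probe, and a value under 0.01 counted as above background. Genes above background on 5 of 10 arrays were tested by their brightest probe with lmFit and eBayes, with Benjamini-Hochberg adjustment over all genes at 0.05. Each comparison used its 10 arrays alone. Symbols came from GEO's platform table, updated through RefSeq by gene identifier for 34807 of 34885 probes with 1 gene.

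The 10 genes and all gene lists were chosen with earlier results of these data known. The text names the 10 genes, up to 4 called genes a list and comparison with the smallest adjusted p, and the 5 genes most like Hamp and Tfrc; exceptions are marked. Tumor and liver of the same number came from the same mouse, and deviations from the group means over 8674 genes correlated at 0.189 to 0.52, each tumor best with its own liver. Chip positions and scan batches were not used here. The number of arrays limits the precision. The alternatives were other background corrections, scaling, filters, probe rules, the processed intensities, 1 fit of 15 arrays, array weights, the mouse as a replicate block, and leaving arrays out. The script was tested on simulated data. Promoters came from RefSeq (GRCm38.p6).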

Additional observations from a re-analysis of the deposited data

Results flagged for a closer look

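Over the 8 measured genes and 3 groups, 24 groups of 5 arrays were checked for an array far from the others, and chance alone marks about 1 in 20. The Tmprss6 level of the CD NW liver of mouse 3N, 8.39, was marked as the lowest of its group. Its gap to the nearest array was 0.816 of the group's range, above the critical 0.71. The second Tmprss6 probe was also lowest in this mouse, at 7.67.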

How the results depend on the processing

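The differences of the 8 measured genes moved by less than the spread between replicates in every alternative that tested them. The filter on every array left out Id1 in both comparisons with CD NW liver and Hamp2 in both with tumor. Differences of dim iron genes shrank without background correction (Hmox1 to 1.11, Cd163 to -0.81 between the livers), and these calls held. Hfe, Id1 and Slc40a1 changed sign in some, each where no difference was called. Between WD SW and CD NW liver, 824 genes were called, 499 when every array had to be above background, and 475 to 964 with 1 array left out. The lowest counts came when mouse 2L (475), 1R (509) or 1L (522) was left out. Family calls there went from 1 to 2 with array weights, and 1 to 2 with 1 array left out, the second being Hamp2 without the liver of mouse 6L. Between tumor and WD SW liver, 348 genes were called, against 231 with median scaling, 221 with every array above background, 681 in 1 fit of 15 arrays and 552 with array weights. The replicate block by mouse gave 907, 344 of them shared with the 348, and left the family calls at 2. With 1 array left out the count was 154 to 468, lowest without the liver of mouse 4R (154), 4N (226) or 5N (227) or the tumor of 5N (176). Family calls were 1 in place of 2, with Hamp remaining, without background correction, with normexp at an offset of 50, with the authors' processed values, with every array above background and without both arrays of mouse 5R, and 1 to 2 with 1 array left out. Between tumor and CD NW liver, median scaling left 3 of 5 family calls. The counts of other iron genes called were 3 to 9, 2 to 6 and 13 to 26 over the alternatives of the 3 comparisons, beside 7, 4 and 21. Median scaling moved the median of all genes to 0.05, 0.08 and 0.15. The cause of these changes was not tested. Signals near background, as for Bmp6 and Smad7, limit what can be measured.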

Other observations

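Genes most like Hamp2 over the 15 arrays were looked up after its values were seen, by the same root mean square measure as for Hamp. They were Cyp2b9 (1.01), Cyp2b23 (1.497), Thrsp (1.59), Ntrk2 (1.60) and Ccnd2 (1.61), beside an SD of Hamp2 of 2.27. Cyp2b9, a cytochrome P450 with higher levels in livers of female mice, had a mean log2 level of 6.44 ± 1.58 (SD, n = 5) in CD NW liver, 9.06 ± 1.70 (SD, n = 5) in WD SW liver and 5.49 ± 0.86 (SD, n = 5) in tumor. Its highest WD SW liver was that of mouse 5R, at 11.27, and its lowest that of mouse 6L, at 7.32, the same mice as for Hamp2. Cyp2b9 was picked for its likeness to Hamp2 on these same arrays, so this match follows in part from the choice.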
